A study of Mus musculus with 6 samples.

Results

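The genes described here belong to 4 families that hold secreted proteins of the nose: lipocalins with the odorant-binding proteins, BPI-fold proteins, secretoglobins and mucins. Not every member is such a protein, since the families also hold membrane mucins, lipocalins known from the epididymis and the pseudogene Scgb2b23-ps. They were taken by symbol (Obp, Lcn, Scgb or Muc followed by a digit, or Bpif) from the rows of the array table with exactly 1 gene symbol. Where a gene had more than 1 probe set, that of the highest mean signal on the 6 arrays stood for it. The rule found 51 genes of the 19937 measured: 14 lipocalins and odorant-binding proteins, 14 BPI-fold proteins, 11 secretoglobins and 12 mucins. RNA came from the septa and turbinates of newborn C57BL6 mice, on the day of birth, from matings of Atf5+/- parents. The knockout samples were Atf5-/- and the other samples were wild type (Atf5+/+), with 3 arrays of each genotype, and each array held RNA pooled from 3 pups of different litters. The labels do not name the part of Atf5 that was removed, and the pooling hides differences between pups. Atf5 itself had log2 signals of 9.43, 9.44 and 9.50 in the knockout, against 10.54, 10.96 and 10.63 in the wild type (change -1.25, limma adjusted p = 0.000499), or 2.38-fold lower in the knockout. The groups did not overlap, in the direction that the labels give.

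Odorant-binding proteins and other lipocalins carry small hydrophobic molecules in a barrel-shaped pocket, and in the nose they are secreted into the mucus over the sensory cilia. BPI-fold proteins are secreted by nasal and airway epithelia and glands and belong to the family of a bactericidal protein of neutrophils. Secretoglobins are small secreted dimers, and the androgen-binding proteins of the mouse are members of that family. Gel-forming mucins give mucus its structure, and membrane mucins coat the cell surface. In the olfactory mucosa such proteins come from Bowman glands, from the nasal and vomeronasal glands beside the sensory epithelium and from secretory cells of the respiratory lining. A dissection of septa and turbinates holds all of these to a varying extent, and in such bulk RNA fewer cells of a type and less RNA per cell cannot be told apart.

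None of the 51 genes passed the test between knockout and wild type (limma, Benjamini-Hochberg adjusted p under 0.05 over all 19937 genes), against 3.74% of all genes. The lowest adjusted p among them was 0.207, for Obp1a. At an unadjusted p under 0.05 there were 3 of 51 (Obp1a, Obp2a and Bpifb3), against 16.1% of all genes. The 3 arrays of the knockout did not overlap those of the wild type for 2 of 51 genes, Obp1a and Scgb1a1, against 21.1% of all genes. Both were lower in the knockout. The median log2 change of the 51 genes was -0.04, beside 0.01 over all genes, and 32 of them lay below 0. With the replicate number of the sample titles as a block, 3 of the 51 passed, against 6.57% of all genes: Obp1a and Muc5ac lower and Bpifb3 higher in the knockout.

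**Figure D1:**
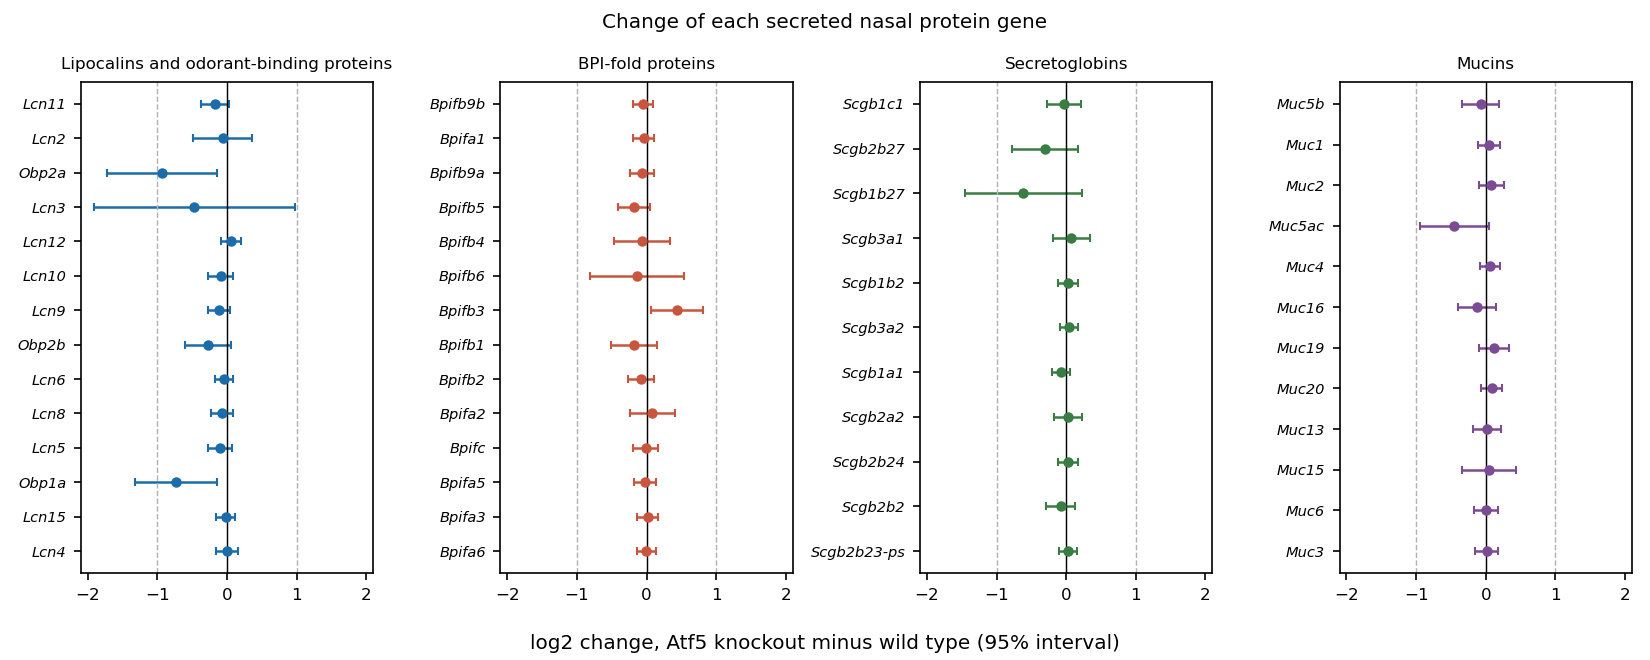
Log2 change of the 51 genes, Atf5 knockout minus wild type, with 95% intervals of limma (n = 3 arrays per genotype), in 1 panel per family. The dashed lines mark a 2-fold change in either direction, and the intervals of Obp2a, Obp1a, Lcn3 and Scgb1b27 cross the left line.

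The intervals show what size of change these arrays leave possible. For 47 of the 51 genes the 95% interval of the change lay within 2-fold in both directions, and for 42 within 1.5-fold. Over all genes the interval lay within 2-fold for 98.9%, against 92.2% of the 51, and within 1.5-fold for 19018 of 19937, so the 51 were bounded less tightly than the array at large. The 4 genes with a wider interval were Obp1a, Obp2a, Lcn3 and Scgb1b27. Signals of different probe sets are not on a common scale of transcript amount, so genes are compared here by change and by spread only. As a description of brightness, 24 of the 51 probe sets gave a mean signal above that of the median gene, 14 lay in the brightest 10%, and 23 lay at or below the 30th percentile.

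Promoter sequence is shown for 5 genes, picked by hand with their wild-type values known and not by a fixed rule. Obp1a, Obp2a, Obp2b and Lcn3 had their lowest wild-type value on the same array, replicate 2. They ranged between 1.54-fold (Obp2b) and 2.67-fold (Obp2a) over the wild-type arrays, while Bpifa1 stayed between log2 signals of 14.19 and 14.25 there. Replicate 2 was the lowest wild-type array for 24 of the 51 genes, so that trait is not particular to these 4. Scgb1b27 and Bpifb6, also lowest there, ranged over 2.83-fold and 2.22-fold in the wild type and are not shown. Within the knockout, Obp1a and Obp2b ranged over only 1.11-fold and 1.10-fold, no more than Bpifa1 at 1.12-fold, and Lcn3 over 8.02-fold. The probe sets of Obp1a and Obp2b were dim (10.8th and 20.3rd percentiles of signal), and that of Bpifa1 was among the brightest. The part of the low and high ends of the array in these small ranges was not tested. Each line gives the last 100 bases before the annotated start, from RefSeq on build GRCm38.p6, in the direction of the gene. Capitals mark the letters TATAAA, the core of a TATA box. A link between these letters and the array values was not tested.
Obp1a, chrX:78091375-78091474, minus strand: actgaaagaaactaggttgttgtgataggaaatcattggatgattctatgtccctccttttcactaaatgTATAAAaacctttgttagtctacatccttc
Obp2a, chr2:25699974-25700073, plus strand: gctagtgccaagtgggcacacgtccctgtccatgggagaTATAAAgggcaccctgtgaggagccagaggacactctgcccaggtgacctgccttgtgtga
Obp2b, chr2:25736907-25737006, plus strand: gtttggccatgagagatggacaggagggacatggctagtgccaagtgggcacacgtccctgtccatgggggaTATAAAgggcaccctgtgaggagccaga
Lcn3, chr2:25765433-25765532, plus strand: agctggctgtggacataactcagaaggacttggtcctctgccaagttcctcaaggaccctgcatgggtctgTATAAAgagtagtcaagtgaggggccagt
Bpifa1, chr2:154142780-154142879, plus strand: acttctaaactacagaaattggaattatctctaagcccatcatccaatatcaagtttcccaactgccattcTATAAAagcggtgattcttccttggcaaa
The first base of TATAAA stood 30 bases before the start in Obp1a, 29 in Lcn3 and Bpifa1, 28 in Obp2b and 61 in Obp2a. Laid over each other at this motif, the upstream sequences of Obp2a and Obp2b were identical at 127 of 128 bases, with the annotated start placed further from it in Obp2a. Probe sets of such close copies may read each other's transcripts, so their values are uncertain as separate measures.

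The promoter table held 47 windows for 44 of the 51 genes. TATAAA, searched on both strands of the 250 bases before the start, was in 31.9% of these windows and in 12.4% of all 32851 promoters of the table. Within 40 bases of the start on the gene's own strand it was in 9 of the 47 windows (19.1%), against 2.31% of all promoters. The letters TGATGNAAN, a response element bound by ATF and C/EBP factors, were in 0 of the 47 windows and in 3.44% of all promoters. TGACGTCA, the cAMP response element, was likewise in 0 of 47 windows and in 1.55% of all promoters, and the forkhead core TGTTTAC was in 1, that of Muc20. These are matches of letters in a short window, and related members share sequence.

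Obp1a, an odorant-binding protein gene on the X chromosome, had log2 signals of 6.54, 6.40 and 6.40 in the knockout arrays (replicates 1, 2 and 3), against 7.89, 6.58 and 7.07 in the wild-type arrays. The 3 knockout values were close together, and the lowest wild-type value, that of replicate 2, lay just above them. The log2 change was -0.73 (SE 0.26, adjusted p = 0.207), with a 95% interval of -1.32 to -0.14, or 1.66-fold lower in the knockout. Its signal lay at the 10.8th percentile of all genes, and the gene passed in the fit blocked by replicate number (adjusted p = 0.0486). It also passed without wild-type replicate 2, at -1.03 (adjusted p = 0.0365). Without wild-type replicate 1 its change was -0.37 (adjusted p = 0.313).

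Obp2a, also called Lcn13, encodes a secreted lipocalin of the odorant-binding type. Its log2 signals were 11.78, 11.26 and 10.96 in the knockout arrays, against 12.72, 11.34 and 12.75 in the wild-type arrays. Wild-type replicates 1 and 3 stood above all knockout arrays, and wild-type replicate 2 stood among them. The change of -0.93 (SE 0.35, adjusted p = 0.232), 1.91-fold lower in the knockout (95% interval 1.10 to 3.31), was the largest in size of the 51 genes. It did not pass with the block either (adjusted p = 0.0693).

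Obp2b, separated from it by 1 other gene on chromosome 2, had 7.51, 7.37 and 7.42 in the knockout, against 7.94, 7.31 and 7.88 in the wild type, the same order of arrays within the wild type except between replicates 1 and 3. Its change was -0.28 (SE 0.15, adjusted p = 0.401). Without wild-type replicate 2, 3 of the 51 genes passed, against 3.00% of all genes: Obp1a, Obp2a (-1.40, adjusted p = 0.0116) and Obp2b (-0.48, adjusted p = 0.0165). That array held the lowest wild-type value of each of these 3 genes, so leaving it out widens their change. Obp2a was at -0.71 without wild-type replicate 1 (adjusted p = 0.551) and at -0.69 without wild-type replicate 3 (adjusted p = 0.442). Obp2b ran from -0.48 to -0.16 with 1 array left out. Over the whole table arrays of the same genotype correlated at 0.9919 to 0.9942, wild-type replicate 2 included, and arrays of different genotype at 0.9875 to 0.9922. These ranges are not given array by array, so they do not show how typical wild-type replicate 2 is.

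Lcn3, a lipocalin first described in vomeronasal secretion, had the widest spread of the 51 genes. Its signals were 10.61, 9.33 and 7.61 in the knockout, against 10.40, 8.99 and 9.59 in the wild type. Knockout replicates 1 and 3 differed by 3.00 log2 units, or 8.02-fold, and wild-type arrays by up to 2.66-fold. Against that spread the change of -0.47 had an SE of 0.64 (adjusted p = 0.791), and its sign turned to 0.31 without knockout replicate 3.

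No other lipocalin passed in any setting run. Lcn11, at the bright end of the array, had 13.90, 13.91 and 13.63 in the knockout, against 14.00, 13.90 and 14.07 in the wild type (change -0.18, SE 0.09, adjusted p = 0.375). Lcn2, which binds bacterial siderophores, had 12.67, 12.21 and 11.82 in the knockout, against 12.52, 12.22 and 12.15 in the wild type (change -0.06, 95% interval -0.49 to 0.37). Its arrays spread by 1.81-fold within the knockout, and the genotypes overlapped fully. Lcn12 was at 0.06 (SE 0.06). The remaining lipocalins, among them Lcn5, Lcn6, Lcn8, Lcn9 and Lcn10 of the epididymis and Lcn4 of vomeronasal glands, had signals below the 30th percentile and changes between -0.12 and -0.00. In all, 13 of the 14 lipocalins lay below 0, with a median of -0.10.

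**Figure D2:**
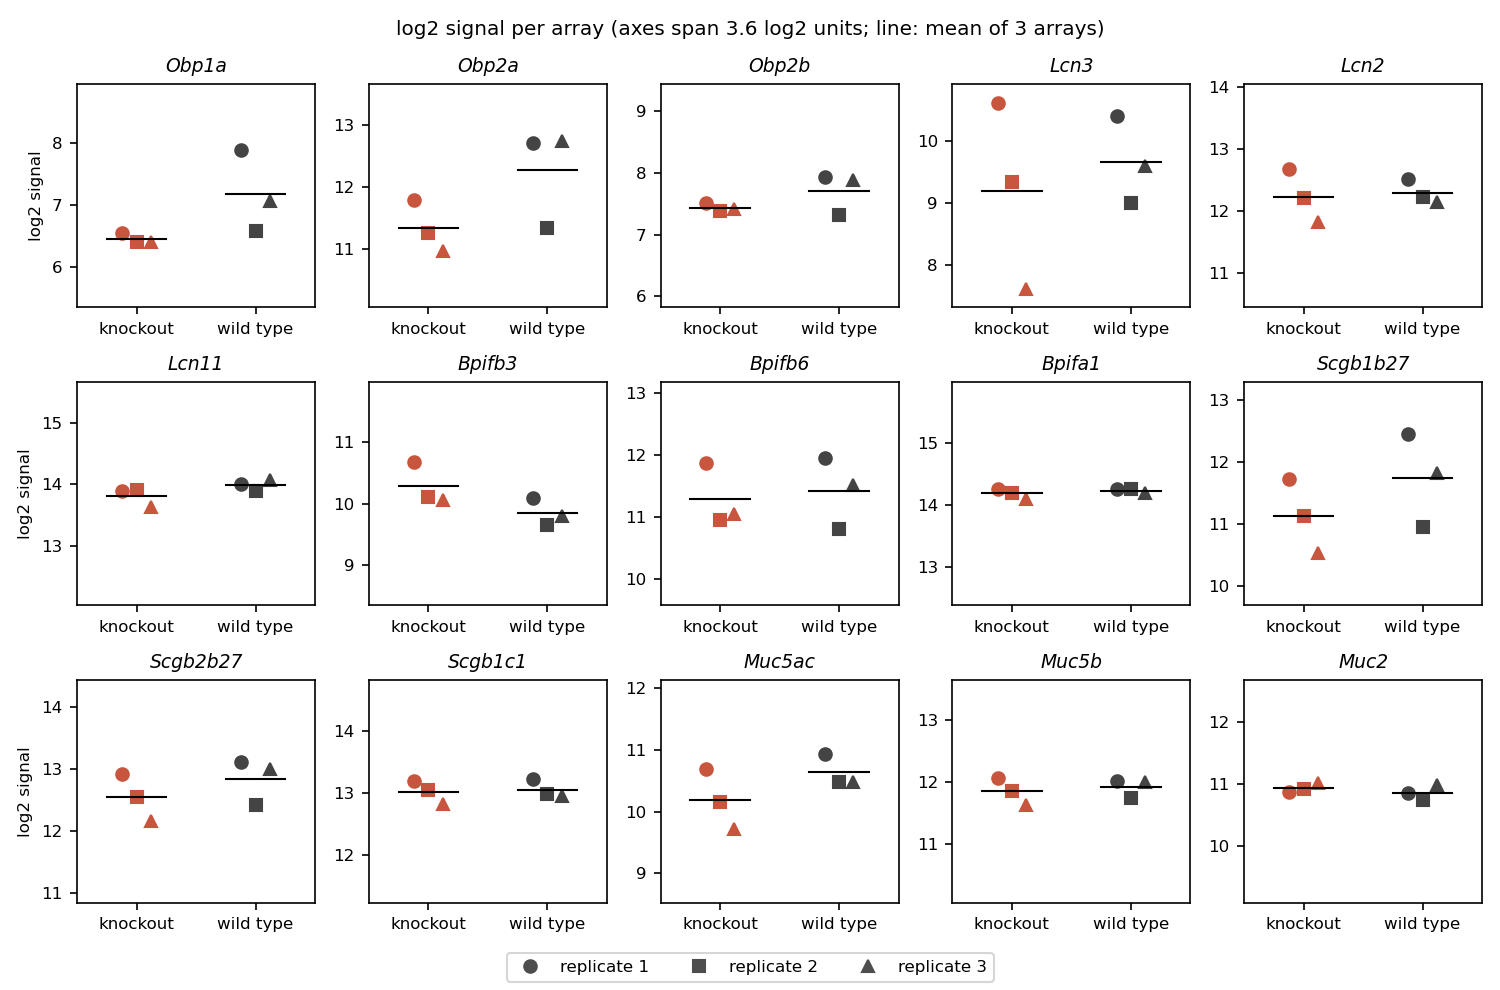
Log2 signal of 15 of the genes on each array, knockout left and wild type right, with a symbol per replicate number and a line at the mean of 3 arrays; each axis spans the same range of log2 units. In Obp1a, Obp2a and Obp2b wild-type replicate 2 (square) lies near the knockout arrays, and in Lcn3, Scgb1b27 and Muc5ac knockout replicate 3 (triangle) is the lowest.

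The brightest probe sets of the BPI-fold genes, those of Bpifb9b, Bpifa1 and Bpifb9a, gave signals just under the highest value in the table, 14.67. The part of that upper end in their small spread and small changes was not tested. Bpifa1, an abundant protein of airway surface liquid also called Splunc1, had 14.26, 14.19 and 14.10 in the knockout, against 14.25, 14.25 and 14.19 in the wild type. The change was -0.04 (SE 0.06, 95% interval -0.19 to 0.10). Bpifb9b had 14.48, 14.39 and 14.50 in the knockout, against 14.56, 14.46 and 14.52 in the wild type (change -0.06, SE 0.06), and its neighbour Bpifb9a was at -0.06 (SE 0.07). The 2 genes are close copies, and their probe sets may read each other's transcripts.

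Bpifb3 had the largest positive change of the 51 genes. Its rat counterpart, RYA3, was described as a secreted protein of the olfactory mucosa. Its signals were 10.67, 10.11 and 10.06 in the knockout, against 10.09, 9.65 and 9.80 in the wild type. The genotypes overlapped by a small step, since wild-type replicate 1 exceeded knockout replicate 3. The change was 0.43 (SE 0.17, adjusted p = 0.241), or 1.35-fold higher in the knockout (95% interval 1.04 to 1.75). Between arrays of the same number the difference was 0.58, 0.46 and 0.26, and with the block the gene passed (adjusted p = 0.0117).

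The other members of this family did not pass under any setting run. The log2 change was -0.18 for Bpifb5 (SE 0.10, adjusted p = 0.445), -0.18 for Bpifb1 (SE 0.15) and -0.06 for Bpifb4 (SE 0.18). Bpifb6 was at -0.14 (SE 0.30), with 11.87, 10.96 and 11.05 in the knockout, against 11.96, 10.80 and 11.53 in the wild type. Replicate 1 was the highest of its genotype in both, and the genotypes overlapped. Bpifa2, the parotid secretory protein, had 8.62, 8.06 and 8.03 in the knockout, where replicate 1 stood apart, and 8.28, 8.08 and 8.12 in the wild type. Of the 14 BPI-fold genes 11 lay below 0, with a median of -0.05, and 12 had 95% intervals within 1.5-fold.

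Among the secretoglobins, the pair Scgb1b27 and Scgb2b27 encodes the alpha and beta-gamma type subunits of androgen-binding protein, and the genes are neighbours on chromosome 7. Scgb1b27 had 11.72, 11.13 and 10.53 in the knockout, against 12.45, 10.95 and 11.83 in the wild type (change -0.62, SE 0.37, adjusted p = 0.471). A second, dimmer probe set of this gene gave 7.57, 7.21 and 6.77 in the knockout, against 8.49, 7.09 and 7.78 in the wild type. Both probe sets thus ranked the 6 arrays alike, with changes of -0.62 and -0.61. Scgb2b27 had 12.92, 12.55 and 12.17 in the knockout, against 13.11, 12.42 and 13.01 in the wild type (change -0.30, SE 0.21, adjusted p = 0.548). The order of arrays matched that of its partner. Many near-identical copies of these genes exist, so the signals may include relatives.

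Scgb1c1, whose rat counterpart RYD5 was also described in the olfactory mucosa, had 13.20, 13.05 and 12.83 in the knockout, against 13.23, 12.99 and 12.95 in the wild type. Its change was -0.03 (SE 0.11, 95% interval -0.27 to 0.21). Scgb3a1, a secretory protein of the airway lining, was at 0.07 (SE 0.12). Scgb1a1, the club cell protein of the lower airways, and Scgb3a2 had dim probe sets, with log2 changes of -0.07 (SE 0.06) and 0.04 (SE 0.06). The arrays of Scgb1a1 did not overlap, at 5.91, 5.93 and 5.97 in the knockout against 5.99, 6.05 and 5.99 in the wild type, although the difference was small. The other 5 secretoglobins were dim too, Scgb1b2 (0.02, SE 0.06) being the brightest of them, at the 7.99th percentile of signal. Over the 11 genes the median change was 0.02, and 5 lay below 0.

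The gel-forming mucins Muc6, Muc2, Muc5ac and Muc5b lie next to each other on chromosome 7, in that order. Muc5b, the main mucin of airway glands, had 12.07, 11.86 and 11.63 in the knockout, against 12.02, 11.75 and 12.0001 in the wild type (change -0.07, SE 0.12, 95% interval -0.33 to 0.19). Muc5ac, a mucin of surface goblet cells, had 10.68, 10.15 and 9.71 in the knockout, against 10.94, 10.49 and 10.47 in the wild type. The genotypes overlapped through knockout replicate 1 alone. Its change was -0.45 (SE 0.22, adjusted p = 0.358). Arrays of the same number differed by -0.25, -0.34 and -0.76, and with the block it passed (adjusted p = 0.0298). With 1 array left out its change ran from -0.70 to -0.22, and it did not pass in any of these 6 settings.

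Muc2, known as the mucin of the intestine, had 10.88, 10.93 and 11.02 in the knockout, against 10.85, 10.74 and 10.99 in the wild type (change 0.08, SE 0.08). Muc19, a gel-forming mucin of salivary glands, was at 0.12 (SE 0.09), and at 0.04 in its dimmer probe set. The membrane mucins Muc1 (0.05, SE 0.07), Muc4 (0.06, SE 0.06), Muc16 (-0.13, SE 0.12) and Muc20 (0.09, SE 0.07) did not pass. Over the 12 mucins the median was 0.03, with 3 below 0.

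The spread between arrays of the same genotype was wide for many of these genes. Pooled over both genotypes, the SD exceeded the 90th percentile of all genes (0.161 on the log2 scale) for 18 of the 51, and for 14 of the 24 brighter than the median gene. The 18 were 5 lipocalins, 5 BPI-fold genes, 4 secretoglobins and 4 mucins. They shared much of their order of arrays, with exceptions. Replicate 1 was the highest knockout array for 17 of them, all but Muc15, and replicate 3 the lowest for 15. The size of that spread differed, from 0.14 log2 units in Obp2b and 0.15 in Obp1a to 3.00 in Lcn3 within the knockout. In the wild type, replicate 1 was the highest for 17, all but Obp2a, and replicate 2 the lowest for 12, with replicate 3 the lowest for the other 6, Muc15 among them (8.44, 8.17 and 7.68). Among all 1994 genes with that much spread, replicate 1 was the highest array in 34.1% in the knockout and in 40.1% in the wild type, and wild-type replicate 2 the lowest in 23.0%. Knockout replicate 3 was the lowest knockout array in 56.0% of those 1994 genes and in 63.0% of all genes brighter than the median gene, so a low value there was common on the array. The 18 were picked by their spread in these arrays, and the shares are given as a description with no test.

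**Figure D3:**
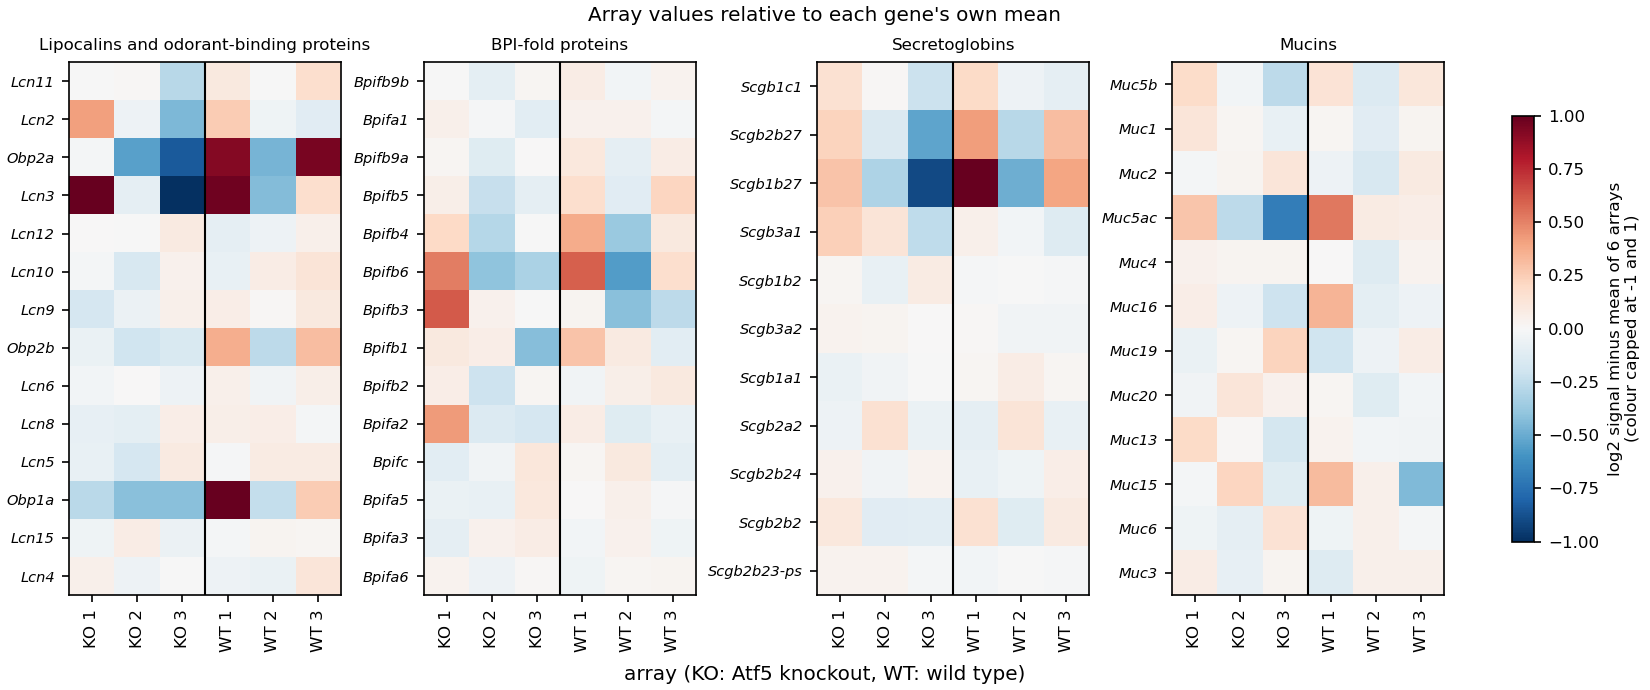
Log2 signal of each of the 51 genes on each array, minus the gene's mean over 6 arrays, knockout arrays left of the line and wild-type arrays right of it, with colour capped at 1 log2 unit. All 18 wide-spread genes lie above their mean in wild-type replicate 1 and below it in knockout replicate 3. Most of them also lie above it in knockout replicate 1, but Obp1a (-0.27), Obp2b (-0.06), Muc15 (-0.02) and Obp2a (-0.02) do not.

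**Figure D4:**
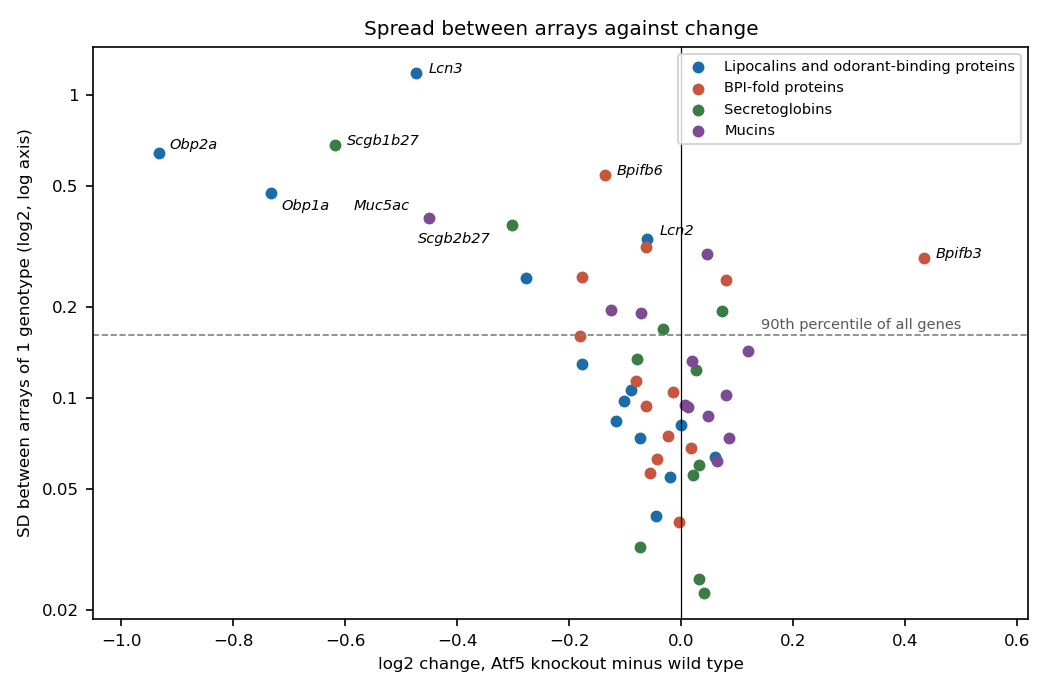
SD between arrays of 1 genotype (pooled, log axis) against the log2 change, knockout minus wild type, for the 51 genes. The genes with the largest changes, such as Obp2a, Obp1a and Scgb1b27, are among those with the largest spread, above the dashed 90th percentile of all genes.

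Other secreted products of the same glands and lining gave values beside these. Among 18 antimicrobial and mucosal defence genes 1 fell and none rose, a share near the 3.74% of all genes, and 4 of 18 had an unadjusted p under 0.05 (22.2%, against 16.1% of all genes). The 1 that fell was Chil1, a chitinase-like protein, at -0.39 (SE 0.08, adjusted p = 0.0290). It had 9.71, 9.76 and 9.51 in the knockout, against 10.11, 9.97 and 10.08 in the wild type, with no overlap. It no longer passed when any of 4 arrays was left out: replicate 1 or 3 of the knockout (adjusted p = 0.0712 and 0.0533) or of the wild type (adjusted p = 0.120 and 0.0848). Ltf, which encodes the iron-binding lactoferrin of glands, had 12.12, 11.27 and 11.23 in the knockout, against 12.28, 11.79 and 12.20 in the wild type. Its change of -0.55 (SE 0.22, adjusted p = 0.265) passed with the block (adjusted p = 0.0433) and without knockout replicate 1 (adjusted p = 0.0206). Lyz1, a lysozyme, was at 0.11 (SE 0.08). The median of this list was -0.10, and replicate 1 was the highest array for 10 of its 18 genes in each genotype.

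Of lipocalins outside the naming rule, 10 of 13 were measured, none passed and the median was -0.00. At an unadjusted p under 0.05 there was 1 of 10, against 16.1% of all genes. Mup5, a major urinary protein, had 5.86, 5.87 and 6.02 in the knockout, against 8.78, 5.74 and 7.71 in the wild type. Wild-type replicates 1 and 3 stood far above the other 4 arrays, as for Obp2a. Its change was -1.49 (SE 0.59, adjusted p = 0.255), and without wild-type replicate 2 it passed at -2.33 (adjusted p = 0.00406). That replicate held its lowest wild-type value, so leaving it out widens the change. Ptgds (-0.09) and Apod (0.01) did not pass. None of the 3 measured of 4 other BPI-family genes passed (1 at an unadjusted p under 0.05): Bpi was at -0.07, Lbp at 0.07 and Pltp, which moves phospholipids between lipoproteins, at 0.31 (SE 0.08, adjusted p = 0.0781; 0.0224 with the block). Pltp also passed without wild-type replicate 3 (adjusted p = 0.0427).

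Lists of genes that mark glands and secretory cells were tested as well, and some of their members, such as Car6 and Tff2, are secreted products too. None of 20 acinar and Bowman gland genes passed in limma, and the median was 0.02. At an unadjusted p under 0.05 there were 0 of 20, against 16.1% of all genes. The water channel Aqp5 was at 10.76, 10.74 and 10.77 in the knockout, against 10.69, 10.65 and 10.87 in the wild type (change 0.02, SE 0.07). Sox9 was at 0.07 (SE 0.09) and Ces1f at -0.32 (SE 0.14). The mean over the 20 genes was 10.05, 9.93 and 9.86 in the knockout, against 9.997, 9.92 and 10.01 in the wild type. It was lowest in knockout replicate 3 and, within the wild type, in replicate 2. Gene by gene, the wild-type order differed from that of the wide-spread secreted genes. Replicate 1 was the highest wild-type array for 4 of the 20 and replicate 2 the lowest for 8. Odam had the widest wild-type range of the 20, at 3.81-fold (11.48, 9.55 and 10.53). The place of wild-type replicate 2 as the lowest wild-type mean of the list rests on that 1 gene. The part of gland content in the results above was not tested, and the table has no detection call by which a marker could be read as absent. With the block 1 of the 20 passed, Odam, named after its values were seen (-0.72, adjusted p = 0.00318 with the block).

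None of the 17 measured of 18 secretory and goblet cell genes passed, with a median of -0.03. At an unadjusted p under 0.05 there were 4 of them, against 16.1% of all genes. Spdef and Foxa3, factors of goblet cell fate, were at 0.06 and -0.09. Galnt6, an enzyme that starts mucin glycosylation, was at -0.30 (limma adjusted p = 0.142, and 0.0262 with the block). None of 15 motile cilia genes of the respiratory epithelium passed (2 at an unadjusted p under 0.05, median 0.07, Foxj1 at -0.00, Dnah5 at 0.18 and Dnaic1 at 0.25). None of the 10 measured of 14 sustentacular cell genes passed (2 at an unadjusted p under 0.05, median -0.02). Cyp2g1, an olfactory cytochrome P450, was at -0.36 (adjusted p = 0.0760; 0.0114 with the block) and passed without knockout replicate 1 (adjusted p = 0.0427). Cyp1a2 had 9.91, 9.44 and 8.76 in the knockout, against 10.45, 8.85 and 9.78 in the wild type, the same order within each genotype as Scgb1b27.

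Markers of the sensory cells, in limma, differed throughout. All 11 genes of mature olfactory neurons fell, with a median of -1.63, Omp at -2.23, Gnal at -2.36, Stoml3 at -2.57 and S100a5 at -2.74. Of 7 tooth enamel genes, which belong to tissue outside the epithelium, 2 fell: Enam (-2.47) and Amelx (-1.98). Over all genes 3.74% passed in either direction. At an unadjusted p under 0.05 in limma there were 5 of the 7, against 16.1% of all genes. The mean of these 7 was 7.86, 7.49 and 8.06 in the knockout, against 9.41, 9.21 and 8.25 in the wild type, high in wild-type replicates 1 and 2. Enam did not pass without 5 of the 6 arrays in turn, and passed without wild-type replicate 3 (adjusted p = 0.000186). Amelx passed without replicate 3 of either genotype and not without any of the other 4 arrays. The part of these cells in the values of the secreted genes was not tested.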

How the data were processed

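Whole-transcript arrays of 1 colour were hybridised with RNA from 3 knockout and 3 wild-type samples. The authors deposited 1 value per probe set and array, taken as log2 signal because the range is 4.50 to 14.7. RMA, affy and limma are named, without versions, in the submitters' processing notes; what else was done is not stated. Array medians were 8.67 to 8.72, and 6 arrays limit the precision. Group and replicate number came from the titles, which call the replicates biological.

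Of 34760 rows, 21640 had 1 gene symbol in GEO's platform annotation, 1321 several and 11799 none. The highest-mean probe set per gene left 19937 genes. Of the 51 genes, 50 had a gene number in RefSeq (GRCm38.p6), which gave gene order and promoters. The genotypes were compared in limma 3.58.1 in R 4.3.3 (lmFit, eBayes, no trend), over all genes, 2-sided, with Benjamini-Hochberg adjustment at 0.05. SE and 95% intervals are limma's. The fit was tested on simulated data. Dim probe sets were kept.

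The genes and lists were chosen with earlier results of these data known. Named genes were Atf5, any of the 51 past the threshold, the 5 of highest mean and 3 of lowest p per family, any whose probe sets disagreed in sign, and from each of 9 companion lists the first 2 measured and up to 4 past the threshold or else that of lowest p. Others, such as Obp2b and Bpifb6, were named after their values were seen. Deviations of arrays of the same number correlated at 0.295, 0.122 and 0.234, each above the minimum of 0.1, so the number was used as a block in an alternative. What arrays of 1 number share is not in the labels. Other alternatives were quantile normalization, median centring, filters on dim probe sets at the 30th percentile or the median, the mean of probe sets, a trended and robust prior, and leaving out each array.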

Additional observations from a re-analysis of the deposited data

How the results depend on the processing

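The count of secreted nasal protein genes that passed was 0, and 3 with the replicate number as a block; with 1 array left out it ran from 0 to 3, the 3 without wild-type replicate 2. Over all settings run, 46 of the 51 genes passed in none, and Obp1a, Obp2a, Obp2b, Bpifb3 and Muc5ac passed in at least 1. The sign of the change turned in at least 1 setting for 23 of the 51, none of them past the threshold there or in the test without a block. Quantile normalization, median centring, the mean of probe sets, the trended prior and both filters on dim probe sets gave 0 calls; the filters left 28 and 24 of the 51 genes. The count over all genes was 745, against 1310 with the block, 432 and 286 with the filters at the 30th percentile and the median (fewer genes tested), and 410 to 649 with 1 array left out. With the block, 1 gene passed among other BPI-family, acinar, secretory and sustentacular genes each, and 2 in the defence list, against 0 and 1 without it; among the genes named by rule it changed no call beyond those given above. With 1 array left out, counts ran from 0 to 1 for other lipocalins (Mup5), other BPI-family, secretory (Tmem45b) and sustentacular genes, and from 0 to 2 for the defence list. Cyp2g1 made the sustentacular count 1 with the trended and robust prior. The enamel count of 2 was 3 with the block (Ambn added), 1 after quantile normalization, median centring, the 30th percentile filter or the mean of probe sets, 0 with the median filter or the trended prior, and 0 to 4 with 1 array left out. The cause was not tested. Depth does not apply to arrays; dim signals of 23 of the 51 genes limit what could be seen.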

Other observations

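Another 3 rows of the array carry several symbols, of which at least 1 belongs to the secretoglobins, and were left out of the comparisons. The row for Scgb2b27 and Scgb2b26 had 9.0, 8.69 and 8.56 in the knockout, against 9.11, 8.66 and 9.04 in the wild type, the order of arrays within each genotype that Scgb2b27 showed alone. The row for Scgb2b11, Scgb2b7 and Scgb2b20 had 8.34, 8.20 and 8.23 in the knockout, against 8.45, 8.17 and 8.56 in the wild type. The row for Scgb1b7, Scgb1b20 and Scgb1b29 was dim, with 5.23 ± 0.07 in the knockout, against 5.22 ± 0.03 in the wild type (SD, n = 3 each).

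Dmbt1, a mucosal defence protein named after its values were seen, had 9.60, 8.95 and 8.70 in the knockout, against 9.91, 8.59 and 9.67 in the wild type. Odam had 10.78, 9.07 and 9.54 in the knockout, against 11.48, 9.55 and 10.53 in the wild type. In both genes replicate 1 was the highest array of each genotype and wild-type replicate 2 the lowest wild-type array, as in most of the wide-spread secreted genes. Both were picked by their values, and their lists did not share this order throughout. Replicate 1 was the highest wild-type array for 10 of the 18 defence genes and for 4 of the 20 acinar and Bowman gland genes. Replicate 2 was the lowest wild-type array for 10 of the 18 and for 8 of the 20.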
